A study of Mus musculus with 8 samples.

Results

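The response to the cytokine IL-33 was examined in STAT3-deficient lung ILC2s, the group 2 innate lymphoid cells that make type 2 cytokines without carrying a rearranged antigen receptor. The comparison used 4 of the 8 RNA-seq libraries of the study, 2 of STAT3-KO cells given IL-33 and 2 of STAT3-KO cells kept as controls. All cells came from lungs of C57BL/6 mice exposed briefly to papain, a plant protease that triggers allergic inflammation, and had been expanded for about 5 days in culture with IL-2 at 10 ng/ml. The treated groups then received IL-33 at 10 ng/ml for 2 further days, and the labels do not describe the medium of the controls in that time. STAT3-KO cells carried floxed Stat3 alleles together with Vav-iCre, a recombinase driven by the Vav promoter and active throughout the blood lineages. The other 4 libraries, 2 WT control and 2 WT with IL-33, came from floxed mice without the recombinase. They entered the fit and served to test where the response of STAT3-KO cells differed. The labels do not say whether replicates were separate mice, pools or cultures, so p-values measure the spread between these libraries, which may be technical. Genes were kept if they reached 1 FPKM (fragments per kilobase of exons and per unit of library depth) in at least 2 of the 4 STAT3-KO libraries, which held for 11025 of the 22075 genes in the table. Differences are those of log2(FPKM + 1) between IL-33 and control with the standard error (SE) of limma, and a gene was called changed at an adjusted p under 0.05 over all tested genes.

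IL-33 is an alarmin, released by damaged epithelial cells, that binds the receptor chain Il1rl1 (ST2) with its partner Il1rap and signals through MyD88 to NF-kB and the AP-1 factors. In ILC2s it drives division and the release of IL-5, IL-13 and amphiregulin. STAT3 carries signals from a different set of receptors, those of IL-6, IL-10, IL-21 and related cytokines, and is phosphorylated by JAK kinases rather than by the IL-33 receptor itself. In bulk RNA, fewer cells of a type and less RNA per cell cannot be told apart.

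Stat3, the targeted gene (ENSMUSG00000004040, GRCm38 chromosome 11, 100885098 to 100939540), measured 15.3 and 16 FPKM in the controls and 8.03 and 9.69 with IL-33. The IL-33 libraries of STAT3-KO cells lay below their controls (-0.76 ± 0.15, adjusted p = 0.00241), while the WT difference was 0.17 and the responses differed (-0.94 ± 0.21, adjusted p = 0.0171). The deleted exons are not named by the labels, and reads outside them still count towards the gene. The cells carried the markers of their label. All 15 defining ILC2 markers passed the filter, 4 of them rose with IL-33 and 10 fell, and the transcription factors Gata3 and Id2 stood at 174 and 171 and 649.6 and 594 FPKM with IL-33. The 4 libraries held 16044264 to 17771365 reads, a depth at which 3 reads in a gene of 1 kb make 0.169 to 0.187 FPKM, and across genes Pearson's r between the replicates was 0.983 in control and 0.98 with IL-33.

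Markers of other cells were absent in part. The T cell genes Cd4, Cd8a and Cd8b1 were listed at 0 in all 4 libraries, and Cd3e and Cd3d reached at most 0.229 and 0.203 FPKM. Others of the T cell list were present, Cd3g of the same receptor complex at 9.15 and 8.37 FPKM in the controls and 6.72 and 4.49 with IL-33, the adaptor Lat at 60.8 and 64.7 and then 10.2 and 5.49, and the receptor segment Trbc1 at 46.7 and 45.7 and then 43.6 and 28. The summed T cell list went from 666 and 636 FPKM to 169.9 and 126, carried by Trbc2, a constant segment of the T cell receptor beta chain (from 529.8 to 95.7 FPKM). The mast cell and basophil list fell from 143 and 172 to 9.36 and 7.84 FPKM through Kit and Cpa3, with Hdc and Mcpt8 at most 0.0384 and 0.246 FPKM. The dendritic cell list rose from 37.9 and 38.9 to 427 and 430.3 FPKM through Ccr7, Batf3 and H2-Ab1. Its defining genes Itgax and Flt3 reached at most 0.153 and 0.077 FPKM, and Zbtb46 went from 0.203 and 0.0879 to 1.02 and 0.932 FPKM. Of 5 measured B cell genes 2 passed the filter, Ighm, an immunoglobulin heavy chain (47 and 48.8 FPKM in the controls and 2.7 and 2.74 with IL-33), and Cd79b of the B cell receptor (2.29 and 3.83 and then 21.7 and 19.1), while Cd79a reached at most 0.98 and Ebf1 at most 0.0519 FPKM. The summed B cell list went from 50.3 and 52.9 to 24.8 and 23 FPKM. Among the remaining lists, Tbx21 of ILC1s stood at 19.7 and 21 FPKM in the controls, Pecam1 of endothelium at 18.5 to 26.5 over the 4 libraries, Epcam of epithelium at 5.42 and 7.79 in the controls and the haemoglobin gene Hba-a1 at 12.1 and 10.1. The macrophage gene Lyz2 and the granulocyte gene Ly6g were listed at 0 throughout, but other members of their lists were present. Cd68 of macrophages measured 2.6 and 0.595 FPKM in the controls and 5.61 and 2.78 with IL-33. Ccr3 of granulocytes measured 2.33 and 3.77 FPKM and then 1.87 and 0.65.

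IL-33 changed the RNA of STAT3-KO cells broadly. Of the 11025 tested genes, 6056 (54.9%) were called, 2430 (22%) higher and 3626 (32.9%) lower, and in each called gene both IL-33 libraries lay on the same side of both controls. The groups did not overlap in 8685 genes (78.8%), called or not. Only the largest changes leaned upwards: on FPKM + 1, 106 genes rose and 45 fell 8-fold or more, and 37 rose and 14 fell 16-fold or more. At 4-fold or more 278 rose and 282 fell, and at 2-fold or more 1113 rose and 1732 fell. On this scale a gene low in the controls has little room to fall, while any gene can rise. Among all tested genes the median difference was -0.17. Scaling moved the split between directions. Median-of-ratios factors gave 2810 higher and 3127 lower (median -0.07), the TPM scale 1958 and 4154 (median -0.32), and removal of the trend with length 2921 and 2660 (median 0.01). The background for the counts in gene lists was thus 22% higher and 32.9% lower.

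**Figure D1:**
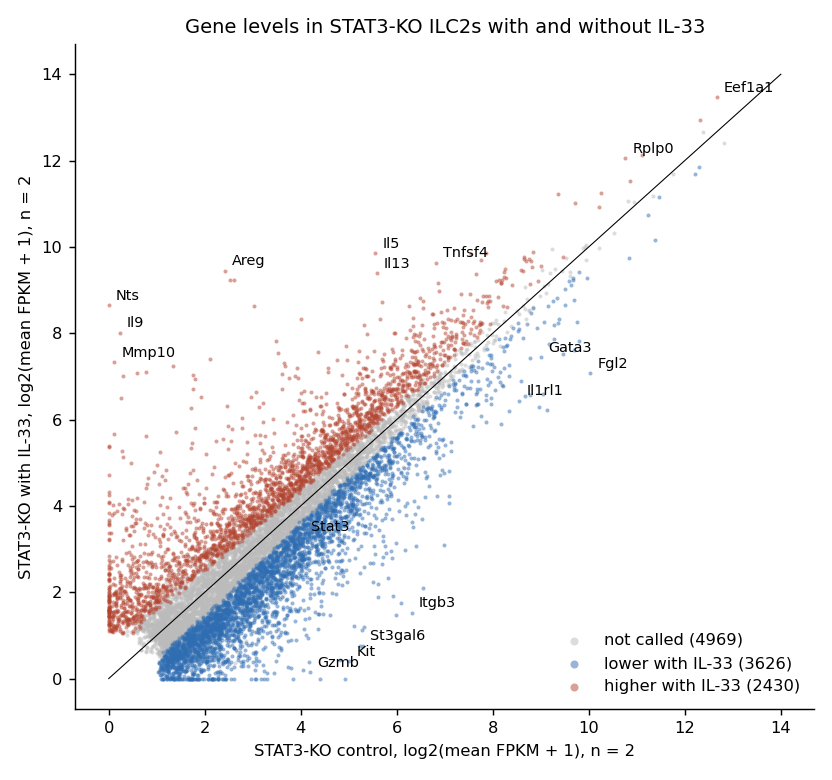
Levels of the 11025 tested genes in STAT3-KO control (x axis) and IL-33 (y axis) libraries as log2 of mean FPKM + 1, n = 2 each, coloured by call, with the line of equal levels. Points far above the line at the left, such as Nts, Il9 and Mmp10, are genes near 0 FPKM in the controls, and Fgl2, Il1rl1 and Gata3 lie below it among the abundant genes.

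Secreted peptides, cytokines and a protease were among the largest rises. Nts, the precursor of the gut and brain peptide neurotensin, was listed at 0 in both controls and measured 436 and 363 FPKM with IL-33 (8.64 ± 0.15, adjusted p = 9.6e-09). Il9, which promotes growth and survival of mast cells and of ILC2s, measured 0.222 and 0.116 FPKM in the controls and 295 and 220.4 with IL-33 (7.78 ± 0.24, adjusted p = 1.51e-07). Mmp10, the matrix protease stromelysin 2, measured 0.173 and 0 FPKM in the controls and 167 and 152 with IL-33 (7.21 ± 0.17). The controls of these genes lay near or at 0, and both treated libraries lay far above them. Areg, the growth factor amphiregulin, measured 2.2 and 6.46 FPKM in the controls and 745 and 648 with IL-33, and Gap43, a membrane protein of growing nerve endings, 4.29 and 5.24 and then 631 and 577 FPKM. The opioid peptide precursor Penk went from 0.717 to 137 FPKM, and the stress-induced factor Atf3 from 0.201 to 89 FPKM. Tnfrsf8, which encodes the TNF receptor CD30, measured 1.84 and 1.21 FPKM in the controls and 144 and 156 with IL-33. Less known in lymphocytes are Ppic, a cyclophilin of the secretory pathway (from 7.15 to 392 FPKM), the matrix protein Tinagl1 (from 0.075 to 50.1 FPKM), the membrane protein Pdzk1ip1 and Pth, the parathyroid hormone gene. The last of these were listed at 0 in both controls, with 48.7 and 32.1 FPKM for Pdzk1ip1 and 53.4 and 28.7 FPKM for Pth under IL-33.

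The largest falls were those of genes of varied roles, among them granule proteases, receptors and enzymes. Gzmd, a granzyme, measured 32.6 and 26.2 FPKM in the controls and was listed at 0 in both IL-33 libraries (-4.92 ± 0.19, adjusted p = 4.03e-07). Itgb3, the integrin beta 3 chain, measured 79.2 and 77.9 FPKM in the controls and 1.94 and 1.81 with IL-33 (-4.79 ± 0.31, adjusted p = 5.16e-06). Kit, the receptor of stem cell factor, measured 31.5 and 30.8 FPKM in the controls and 0.447 and 0.189 with IL-33 (-4.61 ± 0.37). Controls and treated libraries of these genes were widely apart, with replicates close to each other. Genes of antigen receptor signalling were among the falls, with Lax1, an inhibitory membrane adaptor, at 36.8 and 36.3 FPKM in the controls and 0.664 and 0.707 with IL-33, and Rasgrp1, an activator of Ras, going from 59.9 to 2.77 FPKM. Il17rb, the IL-25 receptor chain, went from 27.3 to 0.351 FPKM, the mast cell carboxypeptidase Cpa3 from 126 to 7.51 FPKM and the granule protease Ctsw from 91.9 to 3.3 FPKM. The sialyltransferase St3gal6 went from 38.1 to 0.695 FPKM, the acyltransferase Lpcat2, which makes platelet-activating factor, from 62 to 1.77 FPKM, the transcriptional cofactor Eya2 from 33.5 to 1.32 FPKM and the mitochondrial acetyl-CoA synthetase Acss1 from 15.5 to 0.141 FPKM. The receptor segments Trbj2-7 (from 37.6 to 1.2 FPKM) and Trdv4 (from 39 to 1.3 FPKM) also fell. Such segments are far shorter than 1 kb, so that a given FPKM rests on few reads, and granzymes d to g are near-identical copies whose reads cannot always be told apart.

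**Figure D2:**
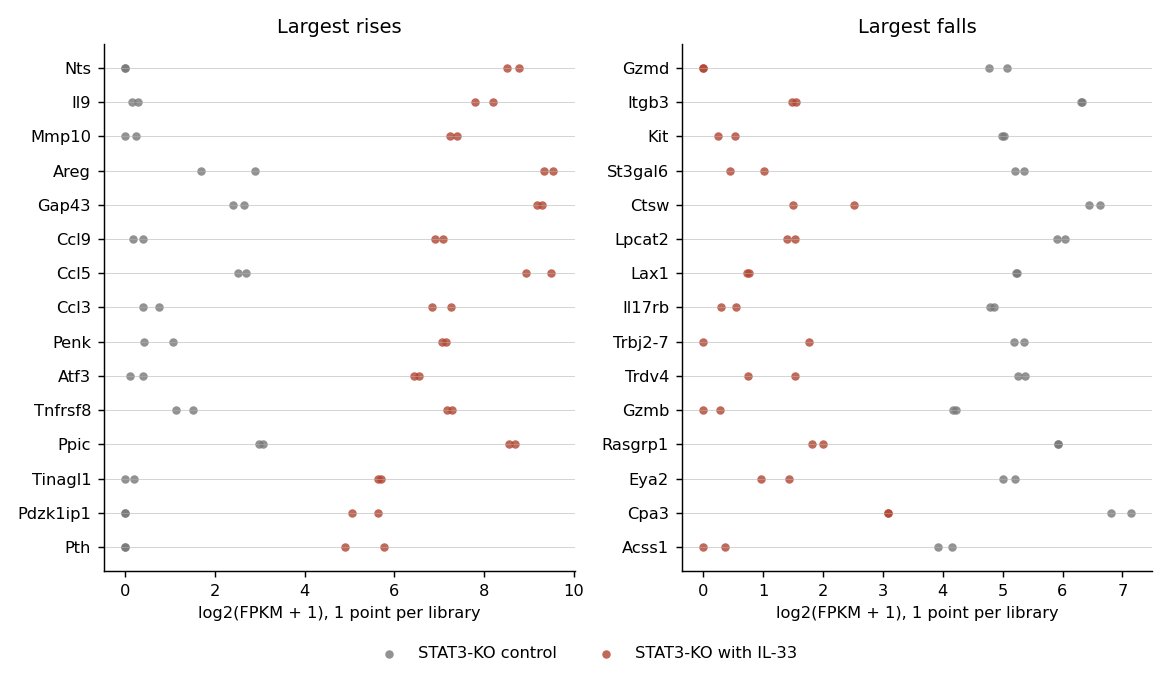
The 15 largest rises (left) and 15 largest falls (right) among named genes, as log2(FPKM + 1) with 1 point for each STAT3-KO control (grey) and IL-33 (red) library. In every gene shown the control points and the IL-33 points are separated by several units, with replicates close together except for Areg in control and Ctsw and Trbj2-7 with IL-33.

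In sheer amount of RNA, a different set led. Eef1a1, the elongation factor that brings tRNAs to the ribosome, measured 6333 and 6643 FPKM in the controls and 10803 and 11899 with IL-33 and was the most abundant transcript after treatment. The ribosomal protein genes Rplp0 (from 1738 to 4233 FPKM), Rpl4 (from 2221 to 4481 FPKM) and Rps2 (from 656 to 2379 FPKM) and the tetraspanin Cd53 (from 1227 to 2442 FPKM) were among the next largest gains. The galectin Lgals1 went from 843 to 2059 FPKM and Il5 from 45.8 to 921 FPKM. The 3 largest losses in FPKM among genes named by the rule were those of Fth1, the ferritin heavy chain that stores iron (from 2647 to 1150 FPKM), mt-Cytb, the mitochondrial cytochrome b mRNA (from 4767 to 3310 FPKM), and Itm2b, a membrane protein of the secretory pathway (from 5040 to 3696 FPKM). The actin regulators Coro1a (from 1835 to 859 FPKM) and Cfl1 (from 2406 to 1712 FPKM) also fell. Fgl2, a secreted fibrinogen-like protein with immune inhibitory activity, measured 1045 and 1043 FPKM in the controls and 115 and 152 with IL-33. The membrane protein Serinc3 (from 887 to 224 FPKM), the ubiquitin ligase Rnf128 (from 832 to 195 FPKM) and the chemokine receptor Cxcr6 (from 862 to 308 FPKM) were among the largest losses as well.

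The promoters of the 3 genes with the largest rises and of Gzmb, the gene whose response differed most from that of WT cells, are shown because all 4 hold a match to the AP-1 motif TGANTCA, the site of Fos, Jun and related factors downstream of the IL-33 receptor. The bases are those upstream of the RefSeq transcript start in GRCm38.p6, 5′ to 3′ on the gene's strand, without bases that the gene models of the table place inside the gene, and capitals mark the match.
Nts: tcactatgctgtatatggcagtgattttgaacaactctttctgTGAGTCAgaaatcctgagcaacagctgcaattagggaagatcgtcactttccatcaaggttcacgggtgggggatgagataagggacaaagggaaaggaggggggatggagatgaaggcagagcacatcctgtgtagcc
Il9: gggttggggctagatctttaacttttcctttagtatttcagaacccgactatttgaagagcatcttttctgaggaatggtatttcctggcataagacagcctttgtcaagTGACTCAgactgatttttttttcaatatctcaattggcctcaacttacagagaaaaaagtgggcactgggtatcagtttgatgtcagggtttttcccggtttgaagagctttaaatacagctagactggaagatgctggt
Mmp10: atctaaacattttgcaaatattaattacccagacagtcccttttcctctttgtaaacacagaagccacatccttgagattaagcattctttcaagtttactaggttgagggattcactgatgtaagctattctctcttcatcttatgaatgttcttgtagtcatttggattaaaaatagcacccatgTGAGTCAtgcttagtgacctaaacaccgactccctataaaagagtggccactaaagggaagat
Gzmb: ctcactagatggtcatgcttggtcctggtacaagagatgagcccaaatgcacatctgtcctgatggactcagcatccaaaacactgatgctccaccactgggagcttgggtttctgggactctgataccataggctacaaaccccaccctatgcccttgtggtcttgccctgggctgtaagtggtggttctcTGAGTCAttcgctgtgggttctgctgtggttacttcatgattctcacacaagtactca
The windows are chr10:102490487-102490668, minus strand for Nts, chr13:56482258-56482507, minus strand for Il9, chr9:7502092-7502341, plus strand for Mmp10 and chr14:56262335-56262584, minus strand for Gzmb. Counted upstream from the RefSeq start, the matches begin at 207, 140, 63 and 58 bases. Read on both strands, the motif occurred in 6.75% of the 32851 promoters of 250 bases in the RefSeq table and in 4.25% of those of tested genes. It occurred in 11.1% of the 243 promoters of genes called higher by at least 4-fold (197 of 278 genes matched by symbol) and in 7.21% of the 208 promoters of genes called lower by as much (148 of 282 matched). The STAT motif TTCNNNGAA was in 7% and 8.17% of these sets and in 5.89% of tested promoters, the cAMP response motif TGACGTCA in 2.88%, 1.44% and 2.77%, and the NF-kB motif in 4.94%, 2.88% and 4.47%. A match describes the letters of a window and is no measurement of binding.

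Among secreted products, 12 of 17 tested cytokine genes rose and 4 fell (median 1.48). Il5, which drives eosinophil production, measured 49.2 and 42.4 FPKM in the controls and 1023 and 818 with IL-33 (4.29 ± 0.13, adjusted p = 1.03e-07), and Il13, which drives mucus and airway reactivity, 46 and 47.8 FPKM in the controls and 719.6 and 625 with IL-33. These classical ILC2 products thus lay far above control in both libraries. Csf2, the gene of the macrophage and eosinophil factor GM-CSF, measured 24.3 and 21 FPKM in the controls and 147 and 124 with IL-33, and Il6 went from 3.54 to 9.22 FPKM (1.23 ± 0.26, adjusted p = 0.00365). Il4, the remaining type 2 cytokine of the locus, measured 3.25 and 2.44 FPKM in the controls and 2.7 and 2.61 with IL-33, with overlapping groups (-0.06 ± 0.20, adjusted p = 0.811). Il10, an inhibitory cytokine, was listed at 0 in the controls and reached 18.4 and 13.2 FPKM. Tnf went from 36.8 to 132 FPKM. Cytokines that fell were Il2, the T cell growth factor (listed at 0 with IL-33 after 3.12 and 2.83 FPKM), and Il16 (from 51.8 to 8.17 FPKM). Il10, Il2 and Tnf were picked after their values were seen.

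In the list of chemokine ligands 9 of 9 tested genes rose, with a median difference of 3.56. Ccl5, which draws T cells and eosinophils, measured 5.45 and 4.74 FPKM in the controls and 718 and 492 with IL-33 (6.61 ± 0.19, adjusted p = 9.82e-08), and Ccl3, which draws monocytes and granulocytes, 0.699 and 0.326 FPKM in the controls and 154 and 113 with IL-33. Ccl9 went from 0.222 to 127 FPKM and the neutrophil chemokine Cxcl3 from 1.08 to 36.8 FPKM, and Ccl4 was listed at 0 in both controls and reached 7.9 and 9.04 FPKM. Together the chemokine list went from 9.75 and 7.84 FPKM to 1091 and 791. Of growth factors, 4 rose and 1 fell of 6 tested. Beside Areg these were the EGF receptor ligand Hbegf (from 1.44 to 9.15 FPKM) and the platelet-derived factors Pdgfa (from 0.698 to 11.2 FPKM) and Pdgfb (from 0.662 to 4.14 FPKM), and Bmp7, a bone morphogenetic protein, fell (from 50.4 to 5.31 FPKM). Neuropeptide genes and their receptors split, 5 higher and 4 lower of 12. The peptide genes Nts, Penk and Grp (gastrin-releasing peptide, from 2.38 to 131 FPKM) rose, while Nmur1, the neuromedin U receptor through which nerves activate ILC2s, measured 230.3 and 229.9 FPKM in the controls and 57.2 and 64.5 with IL-33 (-1.90 ± 0.11, adjusted p = 2.5e-06). The list's median was -0.10 and lay at or below 0 under every scaling.

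The receptor for IL-33 itself fell. Il1rl1 measured 389 and 359 FPKM in the controls and 78.5 and 92.4 with IL-33 (-2.12 ± 0.23, adjusted p = 0.000108), so that both treated libraries lay far below either control. Of the list of IL-33 and IL-1 family receptors and their signalling proteins, 4 rose and 7 fell of 15 tested. Il1r2, the decoy receptor that binds IL-1 without signalling, measured 3.4 and 3.27 FPKM in the controls and 158 and 179 with IL-33 (5.29 ± 0.12, adjusted p = 1.93e-08), and Irak3, an inhibitory kinase relative of the pathway, rose from 4.05 to 10.1 FPKM. The kinase Irak4, which starts the signal, fell from 13.2 to 3.52 FPKM and the IL-18 receptor chain Il18rap from 70.1 to 22.2 FPKM. The members that rose by most in this list are thus known inhibitors of IL-1 signals. The list's median (0.14) was above 0 except on the TPM scale (-0.01).

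In the list of other alarmin and IL-17 family receptors, which also holds Icos and Ptger4, 6 of 8 tested genes fell and 1 rose (median -0.87). Beside Il17rb, the shared IL-17 receptor chain Il17ra went from 29.6 to 4.75 FPKM, the co-stimulator Icos from 291 to 110.3 FPKM and the prostaglandin receptor Ptger4 from 115 to 59.2 FPKM, and Tnfrsf25, the receptor of TL1A, was the member that rose (0.61 ± 0.12, adjusted p = 0.00326). Of cytokine receptor genes of the gamma chain and related families, 7 rose and 10 fell of 21 tested. Il7r, which carries the survival signal of IL-7, measured 544 and 581 FPKM in the controls and 69.6 and 78.4 with IL-33 (-2.91 ± 0.10, adjusted p = 2.22e-07), and Ifngr1, the interferon gamma receptor, 498 and 491 FPKM in the controls and 71.7 and 82.7 with IL-33. Il2ra, the chain that gives IL-2 receptors high affinity, rose from 106 to 345 FPKM, Il10ra from 17.5 to 98.3 FPKM, Il21r from 15.8 to 82.4 FPKM and Csf2rb, the signalling chain of the IL-3, IL-5 and GM-CSF receptors, from 0.957 to 8.77 FPKM. IL-7 and IL-2 receptor genes therefore moved in opposite directions in the same libraries.

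Co-stimulatory molecules of the TNF superfamily rose in 12 and fell in 4 of 22 cases (median 0.59). Tnfsf4, the ligand OX40L through which ILC2s activate T cells, measured 110 and 114 FPKM in the controls and 748 and 837 with IL-33 (2.81 ± 0.10, adjusted p = 2.22e-07). The CD27 ligand Cd70 measured 2.47 and 2.44 FPKM in the controls and 143 and 98.2 with IL-33, the lymphotoxin gene Lta 119.5 and 109 FPKM in the controls and 599.6 and 542 with IL-33, and the receptor Tnfrsf9 (4-1BB) went from 2.81 to 91 FPKM. Ltb, the membrane partner of Lta, went the other way (from 622 to 234 FPKM, singled out after its values were seen). Of checkpoint and B7 family genes, 8 rose and 5 fell of 17 tested. Among them Cd200, an inhibitory ligand, went from 0.0751 to 13.2 FPKM and the co-stimulatory ligand Cd80 from 7.22 to 27.3 FPKM, and the inhibitory receptors Tigit and Pdcd1 (PD-1), also chosen with their values seen, from 1.15 to 25 FPKM and from 52 to 184 FPKM. Cd96, a receptor of the same nectin-binding family as Tigit, fell from 59 to 5.96 FPKM, and Klrg1, a marker of mature ILC2s, from 615 to 289 FPKM. The median of this list (0.14) was 0.00 on the TPM scale.

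Homing and adhesion genes changed in both directions. In the chemokine receptor and egress list 6 rose and 9 fell of 16 tested, against 7 and 7 after median-of-ratios rescaling and 7 and 8 with the length trend removed. Ccr7, the receptor that guides cells to lymph nodes, measured 15.7 and 14.6 FPKM in the controls and 318 and 319.7 with IL-33 (4.31 ± 0.11, adjusted p = 5.8e-08), and Ccr1 went from 11.6 to 158 FPKM. Ccr2 fell from 434 to 94.6 FPKM, Ccr8 from 298 to 108 FPKM and Cxcr6 measured 897 and 826 FPKM in the controls and 324 and 292 with IL-33, all 3 being receptors used for tissue entry or residence. No integrin gene rose and 6 of 11 fell (median -1.37). Beside Itgb3, Itgb7 went from 703 to 183 FPKM, Itgal, the LFA-1 chain, from 119 to 25.2 FPKM, Itgae (CD103) from 4.59 to 0.369 FPKM and Itga4 from 7.13 to 1.54 FPKM. The surface markers used to sort ILC2s fell in 8 and rose in 2 of 13 cases. Thy1 (CD90) went from 20.4 to 2.46 FPKM and Ptprc (CD45), which is borne by all leukocytes and was picked after its values were seen, from 56.1 to 23.4 FPKM.

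Within the cell, the STAT family moved in opposite directions. Stat5a, which carries IL-2 and IL-7 signals, measured 9.65 and 7.51 FPKM in the controls and 26.2 and 29.6 with IL-33 (1.60 ± 0.16, adjusted p = 6.17e-05), and its near relative Stat5b rose from 7.91 to 16.5 FPKM. Stat6, Stat4 and Stat2 fell. Stat6, which carries IL-4 and IL-13 signals, went from 95.5 to 47.4 FPKM, Stat4 from 21.3 to 9.47 FPKM and Stat2 from 9.45 to 2.75 FPKM, beside Stat3 itself. With the length trend removed the difference of Stat3 was -0.27 without a call. Of JAK kinases and their inhibitors, 4 rose and 6 fell of 20 tested. Jak1 fell from 116 to 33.4 FPKM (-1.77 ± 0.15, adjusted p = 2.4e-05), and the feedback inhibitor Socs3, a known STAT3 target, rose from 2.96 to 15.6 FPKM, against 5.87 to 179 FPKM in WT cells (difference -2.63 ± 0.21, adjusted p = 0.000249). The kinase Pim2 rose from 78.3 to 192 FPKM.

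NF-kB subunits and inhibitors, the arm closest to the IL-33 receptor, rose in 14 and fell in 7 of 27 cases (median 0.39), and in 9 and 8 on the TPM scale. The inhibitor Nfkbia rose, measuring 222 and 210.2 FPKM in the controls and 900.1 and 769 with IL-33 (1.94 ± 0.12, adjusted p = 3.6e-06). Nfkbiz of the same list rose from 9.1 to 32.8 FPKM. Of the subunits, Nfkb2 of the alternative pathway went from 57.1 to 146 FPKM, while Rela and Nfkb1 of the classical pathway fell, from 63.7 to 24.2 FPKM and from 73.2 to 15.8 FPKM. MAP kinase phosphatases and Sprouty genes, which dampen growth factor signals, rose in 5 and fell in 1 of 11 cases. Dusp2 went from 0.525 to 5.67 FPKM and Dusp6 from 89.1 to 128 FPKM, and Dusp7 was the member that fell (from 12.7 to 5.73 FPKM). The median of that list was 0.08 and became -0.05 on the TPM scale.

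Of AP-1 and BATF factors 7 rose and 3 fell of 12 tested (median 0.77). Atf3 measured 0.0828 and 0.318 FPKM in the controls and 92.7 and 85.2 with IL-33 (6.23 ± 0.30, adjusted p = 1.25e-06), Batf3 went from 0.243 to 14.1 FPKM, Junb from 89 to 449.9 FPKM, Batf from 26.6 to 73.6 FPKM and Fosl1 from 0.573 to 6.1 FPKM. EGR and NR4A factors respond within hours to receptor signals. In their list, which also holds other genes such as Myc and Ier3, 8 of 10 tested genes rose and 0 fell (median 1.69). Nr4a1 measured 0.36 and 0.378 FPKM in the controls and 9.15 and 9.03 with IL-33, Egr3 went from 0.16 to 4.5 FPKM and Myc, the growth factor-induced regulator of biosynthesis, from 86.4 to 221 FPKM.

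Of 31 tested lineage factors of innate lymphoid cells, 23 fell and 5 rose (median -1.35). Gata3, which ILC2s need for their identity, measured 514 and 516 FPKM in the controls and 174 and 171 with IL-33 (-1.57 ± 0.08, adjusted p = 1.93e-06). Ets1 went from 79.7 to 10.4 FPKM, the Ikaros family members Ikzf1 from 79.2 to 11.3 FPKM and Ikzf3 from 12.9 to 1.98 FPKM, and Tbx21, the factor of ILC1s, from 20.3 to 4.49 FPKM. Factors of ILC2s and of other subsets thus fell side by side. Further members, picked with their values seen, were Rora (from 19.9 to 6.4 FPKM), Bcl11b (from 25.2 to 9.97 FPKM), Id2 (from 999 to 622 FPKM) and Id3 (from 24 to 2.97 FPKM), which all fell, and Pparg (from 122 to 303 FPKM) and Irf4 (from 13.4 to 50.9 FPKM), which rose. Genes named Zfp, mostly zinc finger repressors, fell in 128 and rose in 17 of 260 cases (median -0.59), with Zfp652 going from 10.7 to 0.658 FPKM and Zfp820 from 1.21 to 10.1 FPKM. With the length trend removed 85 fell and 22 rose (median -0.38), after median-of-ratios rescaling 107 and 18, and on the TPM scale 143 and 12.

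Of granzymes and secreted proteases with their inhibitors, 5 rose and 13 fell of 19 tested (median -2.27). Gzmb, the best known cytotoxic granzyme, measured 17.7 and 16.9 FPKM in the controls and 0.213 and 0 with IL-33 (-4.05 ± 0.17, adjusted p = 5.77e-07). Gzme, like Gzmd, was listed at 0 in both treated libraries after 14.2 and 12.6 FPKM, and the pore protein Prf1, singled out after its values were seen, after 9.16 and 5.55 FPKM. Mmp10 was the member that rose by most. In the BCL2 family 7 rose and 4 fell of 16 tested. The survival gene Bcl2l1 went from 108 to 295 FPKM and Bcl2a1d, which has near-identical copies, from 13.7 to 127 FPKM, while Bcl2 fell from 47.1 to 21.6 FPKM. The pro-death member Pmaip1 (NOXA) rose as well (from 36.2 to 193 FPKM).

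Genes of DNA replication and mitosis did not move as a group, with 10 higher and 9 lower of 36. The helicase subunit genes Mcm2 and Mcm4, which license replication origins, fell from 36.5 to 13.1 FPKM and from 27.1 to 12.2 FPKM. So did Top2a (from 28.8 to 12.3 FPKM) and Mki67 (from 5.19 to 1.19 FPKM), markers of dividing cells picked after their values were seen. The cyclin Ccnd2 rose from 130.2 to 231 FPKM, and the cell cycle inhibitors went in opposite directions, Cdkn1a (p21) from 88 to 257 FPKM and Cdkn1b (p27) from 12.7 to 3.59 FPKM. The median of -0.13 turned to 0.03 with the length trend removed.

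Cytosolic ribosomal protein genes rose as a block. Of 79 tested cytosolic ribosomal protein genes 61 rose and 0 fell (median 0.86), and between 58 and 64 rose, with 0 falling, under the other scalings. Their summed share of all FPKM was 4.5% and 4.11% in the STAT3-KO controls and 8.49% and 7.03% with IL-33. In WT cells the share was 4.46% and 4.23% and then 4.96% and 4.46%, so that the STAT3-KO libraries with IL-33 stood above all 6 others. Rps2, a protein of the small subunit, measured 593 and 718 FPKM in the controls and 2898 and 1861 with IL-33 (1.83 ± 0.22, adjusted p = 0.000182). Ribosomal protein genes have many near-identical copies, which leaves the level of a single one uncertain. Of mitochondrial ribosomal protein genes 25 rose and 2 fell of 76 (16 and 2 on the TPM scale), while 49 were not called. Of proteasome subunits, which degrade proteins, 25 rose and 0 fell of 46, and of cytosolic tRNA synthetases 12 and 1 of 20. Examples are Mrps6 (from 14.7 to 86.8 FPKM), the proteasome subunits Psma6 (from 40.1 to 129 FPKM) and Psma5 (from 51.5 to 164 FPKM), and Hars and Rars, which charge tRNAs with histidine and arginine (from 30.9 to 68.5 FPKM and from 71.2 to 149 FPKM).

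Folding and metabolism gave mixed lists that leaned upwards. Of 22 genes of the unfolded protein response 10 rose and 4 fell, among them the chaperones Calr (from 163 to 304 FPKM) and Pdia6 (from 80.2 to 159 FPKM). Of 28 genes of glycolysis and the hypoxia response 16 rose and 6 fell. Pgam1 rose from 80 to 287 FPKM and Pfkp from 18.9 to 68.8 FPKM, whereas the oxygen-regulated factor Hif1a, picked with its values seen, fell from 73.6 to 26.2 FPKM. TCA cycle genes rose in 14 and fell in 5 of 25 cases, with pyruvate carboxylase Pcx going from 3.37 to 11 FPKM. Nuclear genes of the respiratory chain rose in 28 and fell in 4 of 73 cases, with Ndufc2 going from 58.2 to 148 FPKM. Of 10 mitochondrially encoded mRNAs 3 fell and 0 rose, a share near that of all tested genes. The count of falls was 1 after median-of-ratios rescaling and 6 on the TPM scale or with the length trend removed, and each of the 3 calls was lost under at least 1 alternative.

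In the list of arginine and polyamine metabolism 5 genes rose and 4 fell of 14 tested (4 and 5 on the TPM scale). Srm, spermidine synthase, measured 11 and 19.2 FPKM in the controls and 114 and 81.6 with IL-33 (2.65 ± 0.41, adjusted p = 0.000731), Odc1, the rate-limiting enzyme, 3.28 and 3.39 FPKM in the controls and 14.1 and 14 with IL-33, and Sms, spermine synthase, 10.9 and 12.4 FPKM in the controls and 34.7 and 35.3 with IL-33, each higher in both treated libraries than in either control. Arg1, the arginase that ILC2s express in abundance, fell from 484 to 276 FPKM and Ass1 from 108 to 68.6 FPKM. Of serine, folate and methionine enzymes 9 rose and 3 fell of 22 tested, led by Ahcy of the methionine cycle (from 17.4 to 73.7 FPKM). Cholesterol synthesis had 7 rises and 4 falls among 22 genes. Idi1 rose from 9.75 to 63.2 FPKM, while Srebf2, the factor that drives the pathway, fell from 63.2 to 34.7 FPKM. Of antioxidant genes 9 rose and 5 fell of 24 tested. The peroxiredoxins Prdx4 and Prdx3 went from 50.6 to 419.7 FPKM and from 43.5 to 138 FPKM, Hmox1, which breaks down haem, from 6.88 to 27.7 FPKM, and Gclc, the first enzyme of glutathione synthesis, fell from 7.02 to 0.307 FPKM. Amino acid transporters (2 higher, 5 lower of 12) and lipid droplet and fatty acid genes (8 and 5 of 25) were split. The transporter Slc7a8 fell from 57.7 to 6.7 FPKM, and Dgat2, which makes triglyceride, rose from 0.442 to 14.1 FPKM. Of eicosanoid genes 4 rose and 6 fell of 13 tested, among the falls Hpgds, the prostaglandin D synthase (from 4.15 to 0.294 FPKM). The medians of the antioxidant, amino acid transporter and lipid lists changed sign with the scaling.

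Of MHC class II genes 7 of 10 rose and 1 fell (median 2.10). Cd74, the invariant chain, measured 13.8 and 14.5 FPKM in the controls and 159 and 131 with IL-33 (3.26 ± 0.16, adjusted p = 1.3e-06), H2-Aa 15.6 and 13.2 FPKM in the controls and 141 and 108 with IL-33 and H2-Eb1 43.2 and 34.1 FPKM in the controls and 308 and 272 with IL-33. The peptide exchange gene H2-DMb2 went from 2.39 to 27.3 FPKM, and Rfxank, a factor that switches on class II genes, was the member that fell (from 8.89 to 3.6 FPKM, named after its values were seen). The part of dendritic cells and B cells in these rises was not tested. Beside them, Itgax and Flt3 of dendritic cells were near 0 and Zbtb46 reached 1.02 and 0.932 FPKM. Of the same list, Ccr7 and Batf3 rose, to 318 and 319.7 FPKM and to 15.6 and 12.7 FPKM. Xcr1 measured 2.82 and 2.21 FPKM in the controls and 3.7 and 4.5 with IL-33. The B cell genes Cd79b (2.42 ± 0.20, adjusted p = 2.15e-05) and Igkc, an immunoglobulin light chain singled out after its values were seen (0.335 and 0.469 FPKM in the controls and 5.88 and 5.82 with IL-33), rose in the same libraries. The B cell gene Ighm went the other way, from 47 and 48.8 FPKM to 2.7 and 2.74, and Cd79a reached at most 0.98 FPKM. Interferon-inducible genes were divided, with 11 higher and 18 lower of 36. The GTPase genes Igtp and Gbp3 rose (from 107 to 244 FPKM and from 4.57 to 25.3 FPKM), while the nucleic acid sensors Ifi208 and Ddx58 (RIG-I) fell (from 12.3 to 0.204 FPKM and from 21 to 5.45 FPKM). Of sialyltransferases 4 rose and 3 fell of 12 tested, St6galnac3 falling from 10.9 to 1 FPKM and St3gal5 rising from 0.232 to 2.54 FPKM.

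**Figure D3:**
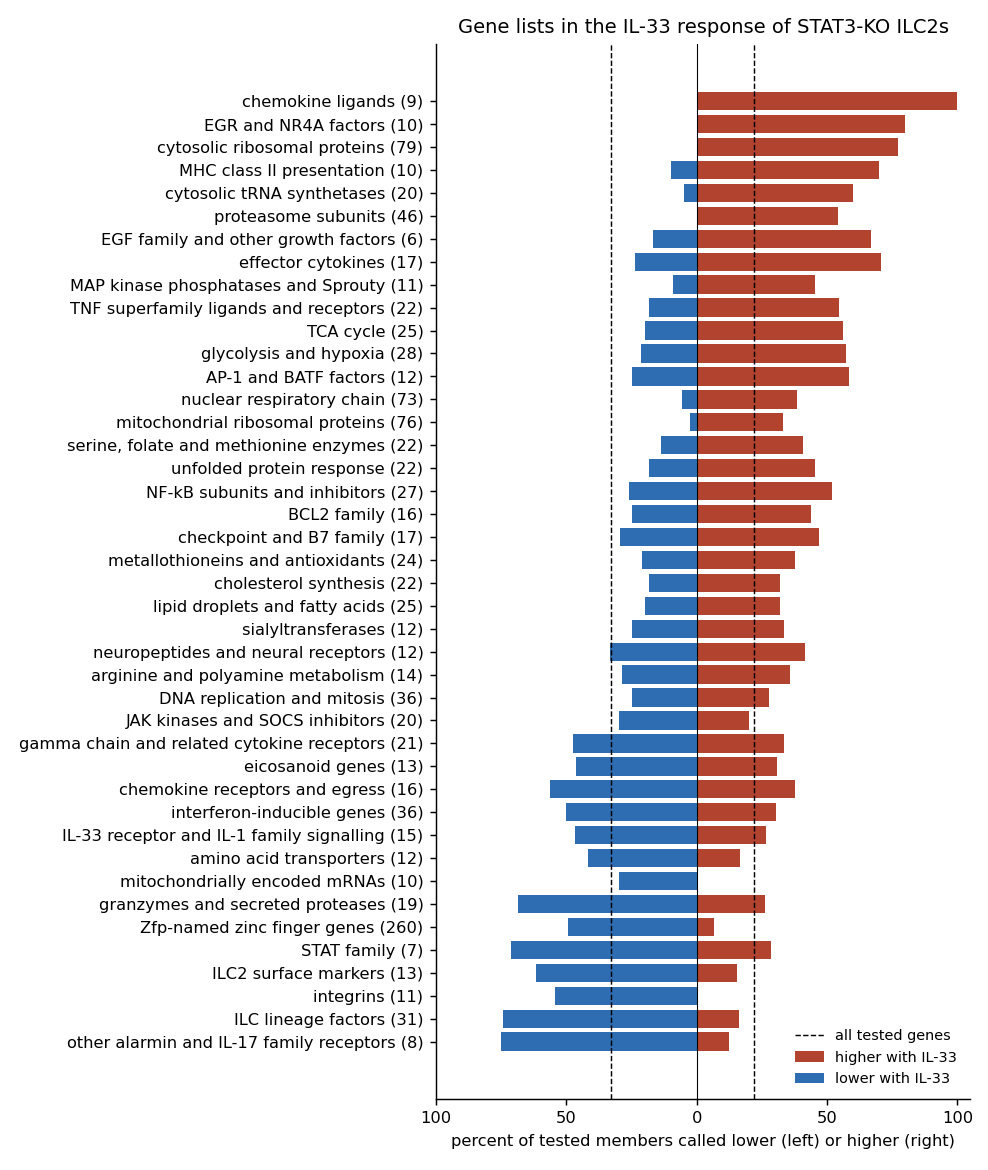
Percent of tested members called higher (right, red) or lower (left, blue) with IL-33 in STAT3-KO cells for the gene lists with at least 5 tested members, whose number stands in parentheses. Dashed lines mark all tested genes, 22% higher and 32.9% lower. Chemokine ligands, the EGR and NR4A list, which also holds genes such as Myc and Ier3, and ribosomal proteins reach furthest to the right.

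Whether these changes differed from those of WT cells was tested as the difference between the responses, STAT3-KO minus WT. It was called in 1851 genes (16.8%), 871 higher and 980 lower. Over the same genes the WT response gave 4169 calls (37.8%), 1628 higher and 2541 lower. The genes were kept by their level in STAT3-KO libraries alone, so those that reached 1 FPKM in WT libraries only are missing. All counts of this paragraph, when set between the genotypes, can therefore lean towards STAT3-KO cells. Of the genes called higher in STAT3-KO cells 1087 were also called higher in WT cells, which is 44.7% of the STAT3-KO and 66.8% of the WT calls, and 1733 were called lower in both (47.8% and 68.2%). The responses share no library. Where both genotypes were called in the same direction and the difference between them was called, it was larger in STAT3-KO cells in 341 of 443 genes. In 73 genes STAT3-KO cells rose and WT cells fell, in 98 the reverse. The number of called differences, 1851 in the full fit, changed when single libraries were left out, mostly downwards. Such a fit keeps 1 library in a group and rests on fewer libraries, so the change cannot be ascribed to the library left out.

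Il9 showed the largest excess in STAT3-KO cells, with 1.16 in WT and 7.78 ± 0.24 in STAT3-KO (difference 6.61 ± 0.35, adjusted p = 5.11e-05). Ccl3 (0.57 in WT, difference 5.90 ± 0.57, adjusted p = 0.000581), Ccl5 and Ccl9 followed, and 8 of 9 chemokine ligands had a called difference, all higher in STAT3-KO cells. Outside the lists the largest excesses were those of Foxs1, a forkhead factor (from 0 to 18.9 FPKM), Crabp2, a retinoic acid binding protein (from 0 to 13.4 FPKM), Cx3cl1, the chemokine fractalkine (from 0.932 to 26.6 FPKM), and the interferon-inducible Ifi27l2a (from 3.07 to 35.9 FPKM). In WT cells these stood between -0.50 and 0.25 on the log2 scale. Tnfsf4 rose from 112 to 793 FPKM in STAT3-KO cells and went from 51 to 48.8 FPKM in WT cells (difference 2.87 ± 0.14, adjusted p = 3.29e-05). Srm, Prdx4, Prdx3 and Stat5a were likewise called higher in the difference.

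Gzmb stood at the other end. It fell in STAT3-KO cells and rose in WT cells, from 10.6 to 81.2 FPKM (difference -6.89 ± 0.24, adjusted p = 4.32e-06). Ero1l, the oxidase that forms disulphide bonds in the secretory pathway, went from 320.4 to 73 FPKM in STAT3-KO and from 291 to 1276 FPKM in WT cells, and Serinc5, a membrane protein that restricts retroviruses, from 8.33 to 1.87 FPKM and from 8.05 to 43.9 FPKM. Furin, the protease that matures secreted proteins, rose in both but by less in STAT3-KO cells (2.14 ± 0.16 against 5.83). Gzme, Ctsw, Nkg7, a granule membrane protein, and Kit fell in STAT3-KO cells, with a called difference from WT cells. Of these, Gzme (0.20), Ctsw (-0.53) and Kit (-1.03) were not called in WT cells. The WT controls of Kit lay apart, at 11 and 31.1 FPKM. Hif1a was of opposite sign as well, 1.38 in WT (difference -2.89 ± 0.34, adjusted p = 0.0013). Of the type 2 cytokines Il5 and Il13 rose by less in STAT3-KO cells (differences -2.22 ± 0.18, adjusted p = 0.000253 and -2.27 ± 0.23, adjusted p = 0.000713), whereas Areg did not differ beyond its error (0.16 ± 0.44, adjusted p = 0.83). Of the 15 ILC2 defining markers 11 had a called difference, all lower in STAT3-KO cells. Il1rl1 was 0.20 in WT, with a difference of -2.32 ± 0.33, adjusted p = 0.00296. Its WT controls lay apart, at 230.8 and 424.2 FPKM, with both WT IL-33 libraries between them (350.1 and 369.5 FPKM).

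By list, ribosomal protein genes had 19 called differences of 79, all higher in STAT3-KO cells (median 0.61), and interferon-inducible genes 17 higher and 2 lower of 36 (median 0.72), since in WT cells 22 of these fell and 1 rose. Gbp2, singled out after its values were seen, went from 49.3 to 80.6 FPKM in STAT3-KO and from 84.4 to 15.3 FPKM in WT cells. In WT cells, where 1628 of all 11025 tested genes rose and 2541 fell, 15 replication genes rose and 1 fell. The difference was called lower in 12 and higher in 1 of 36 replication genes. Glycolysis and hypoxia genes had 11 lower and 3 higher of 28, and lineage factors 9 lower and 1 higher of 31. A difference between genotypes cannot be told apart from the presence of Vav-iCre.

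**Figure D4:**
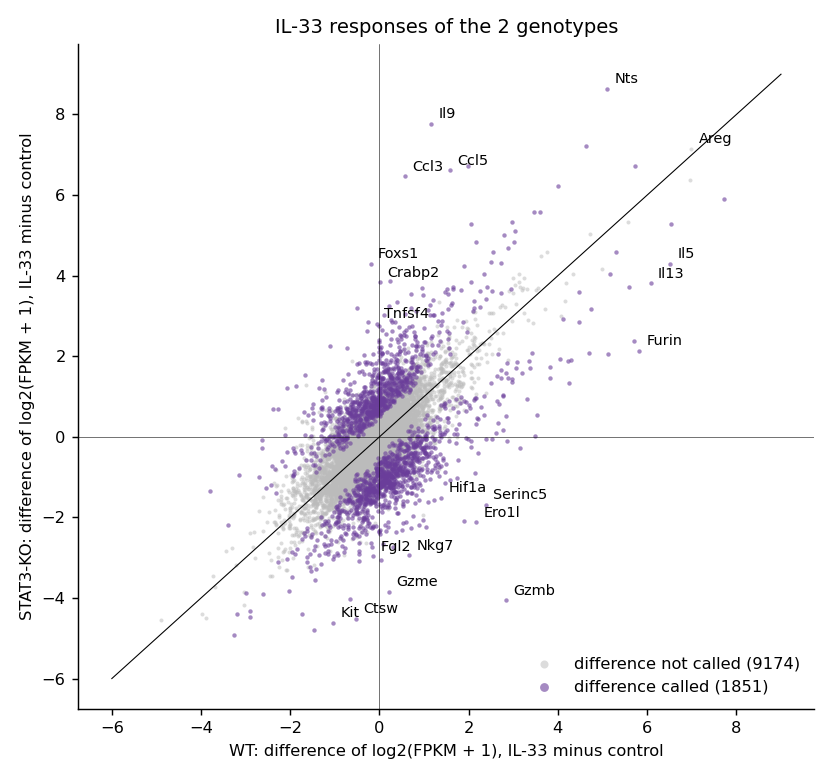
Difference of log2(FPKM + 1) between IL-33 and control in WT (x axis) and STAT3-KO cells (y axis) for the 11025 tested genes, purple where the difference between the responses was called (1851 genes), with the line of equal responses. Il9, Ccl5 and Ccl3 lie far above the line, Gzmb lies in the quadrant of opposite signs, and Areg lies on the line.

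Gene length and gene class went along with direction. Among the 2203 tested genes of at most 1824 bases of merged exons 28.7% rose and 23.7% fell, and among the 2203 of 6895 to 40491 bases 8.94% rose and 50.5% fell. In 5 equal bins the medians were 0.07, 0.10, -0.09, -0.29 and -0.53 from short to long in STAT3-KO cells and -0.05, -0.09, -0.16, -0.16 and -0.21 in WT cells. Of 9540 coding genes 3074 fell and 2175 rose (median -0.14). Differences between classes were not tested. Of 172 antisense RNAs 81 fell and 23 rose, of 172 lincRNAs 69 and 25, and of 165 genes of the class awaiting experimental support (TEC) 120 and 1. Of 55 tested microRNA genes 30 fell and 2 rose, and of 59 snoRNA genes 20 and 2, classes shorter than most sequenced fragments. Among all tested genes 32.9% fell and 22% rose, so that the share of snoRNA genes that fell was near that of all genes. Processed pseudogenes were 151 higher and 97 lower of 512 (median 0.29), and many are near-identical copies of ribosomal protein genes. Reads of antisense genes cannot be told apart from those of their partners, since the sources used here state no strand setting. The part of RNA quality in the length pattern was not tested. With the length trend removed, the ribosomal protein list had 60 rises and 0 falls and the lineage factors 6 rises and 20 falls.

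**Figure D5:**
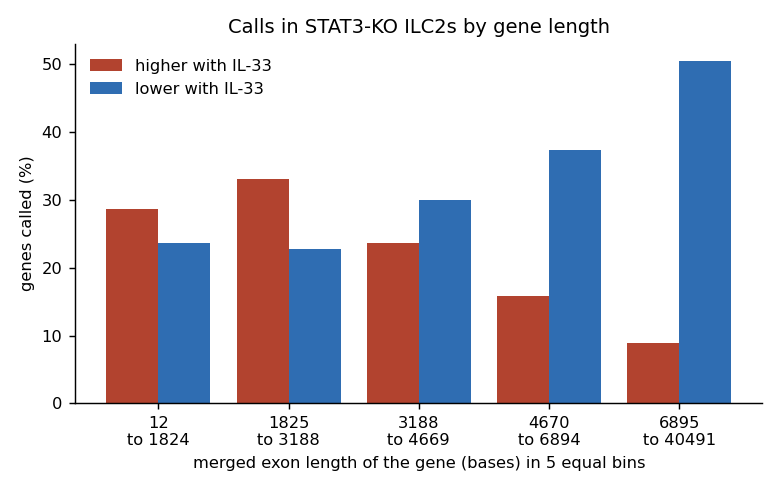
Percent of tested genes called higher (red) and lower (blue) with IL-33 in STAT3-KO cells in 5 bins of merged exon length, 2203 genes each. Falls go from 23.7% in the shortest to 50.5% in the longest bin, and rises from 28.7% to 8.94%.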

How the data were processed

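RNA-seq values of 8 libraries of cultured mouse lung ILC2s, 2 in each of 4 groups, were taken from 1 deposited table that holds FPKM per gene and library. Per the submitters' processing notes, the authors made these FPKM values against GRCm38 using Bowtie2 and RSEM. The notes give no versions, annotation, filter or strand setting. FPKM times merged exon length (GENCODE M21, 22041 of 22075 genes) gave whole multiples of 1 step, within 0.02, for 93.4% to 94.6% of values of at most 100 reads, and the step gave 15843377 to 19905184 reads per library. The intervals such depth allows cover counting error alone.

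Genes with at least 1 FPKM in at least 2 of the 4 STAT3-KO libraries were tested on log2(FPKM + 1) (pseudocount 1) with limma 3.58.1 in R 4.3.3, with 1 mean per group over all 8 libraries, eBayes with trend, 4 residual degrees of freedom and prior ones of 4.91 in the median. P-values were two-sided, adjusted by the Benjamini-Hochberg method over 11025 genes and called at 0.05. The STAT3-KO response and the difference between the STAT3-KO and WT responses were tested. No test was made on lists, which are given as counts and medians beside those of all tested genes. The procedure was tested on simulated data. Tables used pandas 2.3.3 and numpy 2.4.6 in Python 3.11.15, and figures matplotlib 3.10.9.

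The comparison, the 42 gene lists and 12 marker lists and the naming rule were chosen with earlier results of these data known. The rule named 10 fixed genes and the 15 largest rises and falls among called genes with groups apart, at least 5 FPKM in the higher group and no unnamed gene models, pseudogenes or microRNAs. From each list it took at most 5 called members by smallest p (2 abundant ones where none was called). It further took the 8 most positive and 8 most negative differences between responses, and the 10 largest gains and losses in FPKM. Genes outside it are marked as picked after their values were seen. Some genes are not reported here. Promoters came from RefSeq (GRCm38.p6). Alternatives covered the pseudocount, the filter, scaling, gene length, moderation, the libraries in the fit, a replicate block and leaving out each library.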

Additional observations from a re-analysis of the deposited data

Results flagged for a closer look

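For 16 genes the difference between the responses of STAT3-KO and WT cells was among the 8 most positive or the 8 most negative that were called, by the limma test of the difference itself. Each value is STAT3-KO minus WT on the log2(FPKM + 1) scale, and all 16 passed over the 11025 tested genes.

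Of the excesses in STAT3-KO cells, 5 were those of secreted factors: Il9 (6.61), Ccl3 (5.90), Ccl5 (5.02), Ccl9 (4.73) and Cx3cl1 (3.63). The others were Foxs1 (4.49), Crabp2 (3.82) and Ifi27l2a (3.69).

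On the negative side, Gzmb (-6.89), Gzme (-4.05) and Nkg7 (-3.61) encode cytotoxic granule proteins and Ctsw (-3.99) a protease. Ero1l (-4.28) and Furin (-3.69) act in the secretory pathway, and Serinc5 (-4.08) and Kit (-3.58) are membrane proteins. Gzmb, Ero1l and Serinc5 were called lower in STAT3-KO and higher in WT cells.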

How the results depend on the processing

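Of 281 named genes that were called, 269 kept their call under each of the 18 alternatives that tested them and 12 lost it under at least 1, among them Stat3, Ccr3, Cd3g, Dusp10, H2-K1, Rps3a1, St6galnac6, mt-Atp6, mt-Cytb, mt-Nd6 and mt-Rnr2. Stat3 lost it with the gene length trend removed (-0.27, adjusted p = 0.0938); the cause was not tested. Il4, not called, changed sign after median-of-ratios rescaling (0.027), and was between -0.216 and 0.089 with 1 library left out, the latter without STAT3-KO control replicate 1. Leaving out 1 library at a time gave 4321 to 6232 called genes, 1803 to 2484 higher and 2518 to 3748 lower, 881 to 2062 differences between responses and -0.88 to -0.64 for Stat3. A filter of 5 FPKM left 6844 genes and 2288 lower, and no filter gave 20378 genes and 1158 called differences, in both cases over another number of genes. With the replicate block 6029 genes were called, 2425 higher and 3604 lower, and 1882 differences. Replicate numbers did not pair the libraries, as deviations of same-numbered libraries correlated between -0.0607 and 0.0552. Without moderation by trend 5965 were called.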

Other observations

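Some genes passed between near absence and clear expression. In 49 genes both STAT3-KO controls lay under 0.5 FPKM and both IL-33 libraries at 5 FPKM or more, and 29 genes did the reverse. All of them were called, which adds no support, since they were picked by the gap between the same libraries that were tested. Among those switched on, beside Nts, Il9, Mmp10, Atf3, Ccl9, Ccl4 and Foxs1, were Nppc, the precursor of C-type natriuretic peptide (0 and 0 FPKM in the controls and 20.7 and 15.4 with IL-33), the metal ion transporter Slc11a1 (0.209 and 0 FPKM in the controls and 6.19 and 5.95 with IL-33), Rgs16, which shortens signals of G protein-coupled receptors (0.331 and 0.107 FPKM in the controls and 35.5 and 40.3 with IL-33), and the lipid receptor Gpr55 (0.128 and 0 FPKM in the controls and 5.7 and 5.49 with IL-33). Among those switched off, beside Gzmb, Gzmd, Gzme, Kit, Il17rb and Acss1, were the water and glycerol channel Aqp3 (7.64 and 7.22 FPKM in the controls and 0.201 and 0.431 with IL-33) and the growth regulator Mycn (8.01 and 9.72 FPKM in the controls and 0 and 0 with IL-33). Nppc, Slc11a1, Rgs16, Gpr55, Aqp3 and Mycn were picked after their values were seen.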
